A study of Homo sapiens with 12 samples.

Results

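EMX2 and FOXA2 are a pair of transcription factor genes known from the uterus and its glands, and they are followed here across 12 arrays of Ishikawa cells, a human endometrial adenocarcinoma line. They are 2 of 14884 genes that had a name on the array. They were chosen by measured values: an earlier reading of the same arrays had listed them among the genes with the smallest p within a group of endometrial epithelial genes. Both were listed for the difference of ERα(+) from ERα(-) among control arrays, and EMX2 also for the difference of shMOF from control in ERα(-). Their values in those comparisons are therefore a description, with no test. Each gene had 1 probe set.

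Control cells and cells named shMOF, each as ERα(-) and as ERα(+), make up 4 groups of 3 arrays. KAT8 encodes the histone acetyltransferase MOF, the target of the short hairpin that the name shMOF implies, and ESR1 encodes ERα, an oestrogen receptor. All groups are cells of the same line. The sources used here do not give the hairpin's sequence or vector, the agent or clone behind ERα(-) and ERα(+), or whether replicates were separate cultures. The p-values thus reflect variation among these arrays alone, which could be technical. The series title concerns a feedback between MOF and ERα in endometrial cancer, and the design asks how each label changes transcription and whether one effect depends on the other.

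EMX2 is a homeodomain factor related to the fly gene empty spiracles, and it is needed in the mouse for the urogenital tract, including the duct from which the uterus forms. In the adult endometrium it is repressed by HOXA10 and restrains epithelial growth. FOXA2 is a forkhead factor that can bind its sites in closed chromatin. In the uterus it is found in glandular epithelium, where it is required in the mouse for gland formation and for the secretion of LIF, a cytokine of implantation, and it is altered in part of endometrial cancers.

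EMX2 (probe set 16709739) lies on chromosome 10 from 117542746 to 117549546 in GRCh38.p14 and overlaps its antisense RNA gene EMX2OS. FOXA2 (probe set 16917822) lies on chromosome 20 from 22580998 to 22585490, and the long noncoding RNA gene LINC00261 lies 2.36 kb from it. The promoter table from RefSeq (GRCh38.p14) matched 1 of the 2 members, EMX2. Its window, from 250 bases before to 50 after the gene's start at chr10:117542496-117542795 on the plus strand, is shown because it holds core motifs of both protein families followed here. Capitals mark TGTTTA, a forkhead core, and TAATTA, a homeodomain core, each searched on both strands.

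EMX2 promoter: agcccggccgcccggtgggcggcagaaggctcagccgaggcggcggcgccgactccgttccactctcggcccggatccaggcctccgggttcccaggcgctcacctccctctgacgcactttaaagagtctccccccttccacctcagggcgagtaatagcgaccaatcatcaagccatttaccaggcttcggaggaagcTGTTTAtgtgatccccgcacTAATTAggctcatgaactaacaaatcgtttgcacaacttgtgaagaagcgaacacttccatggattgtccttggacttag

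The forkhead core was found once, from position -50 relative to the start, and the homeodomain core once, from position -30, with no overlap between them. Of 35116 RefSeq promoters of the same length, 12.32% held the forkhead core and 4.84% the homeodomain core. GGTCA, the core of an oestrogen response element, had 0 matches in this window and was present in 37.38% of promoters. A match is a run of letters and not a measured binding site, and the search covers this window only.

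A few facts of the whole series bear on all values below. KAT8, the target, was not detectably reduced: its log2 difference of shMOF from control was -0.02 (95% interval -0.29 to 0.26) in ERα(-) and 0.04 (-0.23 to 0.31) in ERα(+). ESR1 did not follow its label throughout either, at 0.18 (-0.08 to 0.45) between control arrays and -0.15 (-0.41 to 0.12) between shMOF arrays. The ESR1 probe set was dim, at a mean log2 signal of 4.36 and the 27.1th percentile of tested genes, which limits what it can show. Every direction below is therefore between labelled arrays. Limma called 0 genes in each of the 5 comparisons below with all arrays in the fit. Without shMOF ERα(-) replicate 2 the shMOF comparison had 5 calls in ERα(-) and 30 in ERα(+), the ERα comparison had 4 in control and 11 in shMOF arrays, and the interaction had 570. The interaction had 11 calls without shMOF ERα(+) replicate 1, and it and the shMOF comparison in ERα(+) had 1 each without control ERα(+) replicate 3. The first principal component of all tested genes held 36.8% of the variance. Its score was highest on control ERα(+) replicate 3 (32.9) and lowest on shMOF ERα(+) replicate 2 (-29.8). Within ERα(+) every control array scored at 3.598 or more and every shMOF array at -4.40 or less. Epithelial markers fitted the label of the line, with 7 of 8 measured markers above the median level of tested genes and EPCAM at a mean log2 signal of 11.5. Of fibroblast and stromal markers 0 of 4 measured lay above that median, with DCN at 2.06 and LUM at 2.20, and of immune and endothelial markers 1 of 6 did, CD68.

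EMX2 gave a clear signal on every array, at a mean log2 signal of 8.13, which is at the 86.4th percentile of tested probe sets. Probe sets differ in their own brightness, so a percentile places a signal on the array's scale and does not rank transcripts. In control ERα(-) the 3 arrays read 7.64, 7.93 and 7.97 for replicates 1 to 3. The shMOF ERα(-) arrays read 8.32, 8.15 and 8.19, and those of control ERα(+) 8.31, 8.26 and 8.50. In shMOF ERα(+) they read 8.32, 7.94 and 8.03. The control ERα(-) arrays were thus low, all of them below every shMOF ERα(-) and control ERα(+) array, while shMOF ERα(+) was split, with replicate 1 as high as the high groups and replicates 2 and 3 near the top of the low group.

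As group means, EMX2 stood at 7.85 ± 0.18 (SD, n = 3) at the low end, in control ERα(-), then 8.10 ± 0.20 in shMOF ERα(+), 8.22 ± 0.09 in shMOF ERα(-) and 8.36 ± 0.13 in control ERα(+), each over 3 arrays. Each neighbouring pair in this order overlapped. The steps between neighbours were 0.25, 0.13 and 0.14 on the log2 scale, against pooled SDs of 0.19, 0.15 and 0.11.

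FOXA2 was dimmer, at a mean log2 signal of 6.21 and the 58.9th percentile. In control ERα(-) its arrays read 6.16, 5.74 and 6.16 for replicates 1 to 3. In shMOF ERα(-) they read 6.33, 6.15 and 6.43, and in control ERα(+) 6.23, 6.46 and 6.66. In shMOF ERα(+) they read 6.26, 5.998 and 5.92. Control ERα(+) lay above control ERα(-) on all arrays, by a narrow gap between 6.16 and 6.23.

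The group means of FOXA2 came in the same order as those of EMX2: 6.02 ± 0.24 (SD, n = 3) at the low end, in control ERα(-), then 6.06 ± 0.18 in shMOF ERα(+), 6.30 ± 0.14 in shMOF ERα(-) and 6.45 ± 0.21 in control ERα(+), each over 3 arrays. Neighbours again overlapped, with steps of 0.04, 0.24 and 0.15 against pooled SDs of 0.21, 0.16 and 0.18. Both genes were listed for the difference between the control groups, so the shared order of those groups follows from the choice. Both genes were highest of the 12 arrays on control ERα(+) replicate 3. The lowest array was control ERα(-) replicate 1 for EMX2 and replicate 2 for FOXA2.

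**Figure D1:**
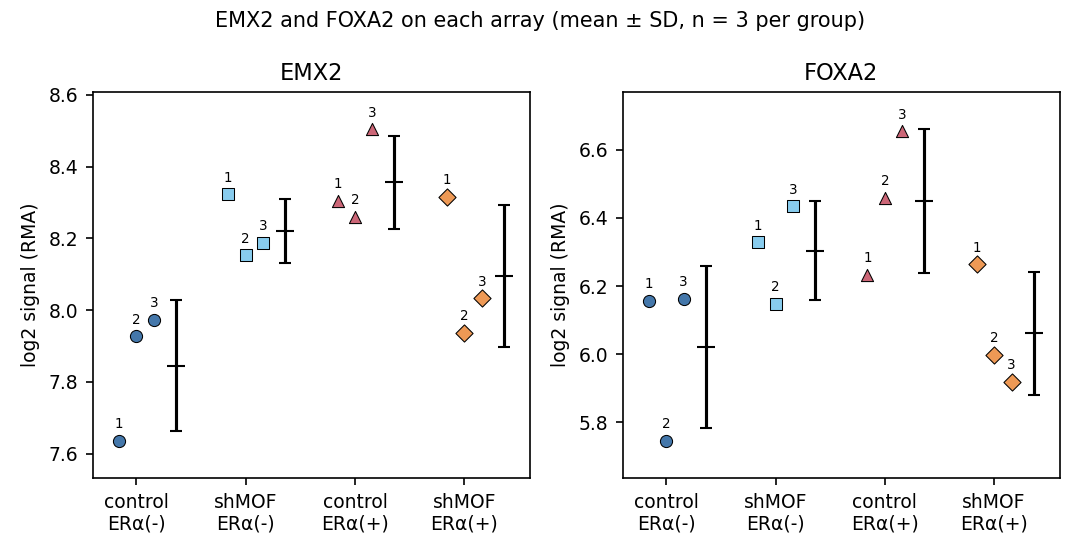
Log2 RMA signal of EMX2 (left) and FOXA2 (right) on each array, in the 4 labelled groups. Points are arrays with their replicate number, and the bar beside them is the mean ± SD over 3 arrays. In both panels control ERα(-) has the lowest mean (7.85 and 6.02) and control ERα(+) the highest (8.36 and 6.45).

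In the comparison that listed both genes, that of the control arrays, EMX2 was higher in ERα(+) by 0.51 ± 0.14 (SE) on the log2 scale, which is 1.43 times, and FOXA2 by 0.43 ± 0.16, which is 1.35 times. The 95% intervals ran from 0.22 to 0.81 and from 0.09 to 0.76. In this comparison 10.3% of all tested genes were higher without overlap, as both members were, and limma called 0 of 14884 genes at an adjusted p below 0.05 (0% of those tested, with 1894 at an unadjusted p below 0.05 and a smallest adjusted p of 0.319). Leaving out 1 array at a time kept EMX2 between 0.41 and 0.58 and FOXA2 between 0.29 and 0.54. The lowest values came without control ERα(-) replicate 1 for EMX2 and without control ERα(-) replicate 2 for FOXA2, the array on which each gene was dimmest.

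Between shMOF and control arrays labelled ERα(-), the comparison that also listed EMX2, its log2 difference was 0.38 ± 0.14 (SE), or 1.30 times, and the groups did not overlap. Of all tested genes 4.11% were higher without overlap here. FOXA2 stood at 0.28 ± 0.16 (95% interval -0.05 to 0.62), or 1.22 times, and its groups overlapped, since shMOF ERα(-) replicate 2 (6.15) lay just under control replicates 1 and 3. Limma called 0 genes in this comparison, with 711 at an unadjusted p below 0.05 and a smallest adjusted p of 0.265. The FOXA2 difference was 0.15 without control ERα(-) replicate 2, its dimmest array.

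Between shMOF and control arrays labelled ERα(+), both genes stood below control. EMX2 differed by -0.26 ± 0.14 (SE; 95% interval -0.56 to 0.03) and FOXA2 by -0.39 ± 0.16 (-0.72 to -0.05), which are 0.835 and 0.764 times control. Both sets of groups overlapped, because shMOF replicate 1 read 8.32 for EMX2 and 6.26 for FOXA2, above control replicate 1 in each case. The control arrays here are the ones that stood high in the comparison that listed the genes, so these values are no independent evidence and carry no test. Leaving out 1 array kept EMX2 between -0.37 and -0.18 and FOXA2 between -0.50 and -0.29.

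Between shMOF arrays labelled ERα(+) and ERα(-), the signs were opposite to those in control arrays. EMX2 differed by -0.13 ± 0.14 (SE; 95% interval -0.42 to 0.17), as a description, since the shMOF ERα(-) arrays had a part in listing it. Leaving out 1 array moved it from -0.24 (without shMOF ERα(+) replicate 1) to -0.05 (without shMOF ERα(+) replicate 2). FOXA2 had not been listed on any of these 6 arrays, so its difference could be tested. It was -0.24 ± 0.16 (95% interval -0.58 to 0.09), and limma's adjusted p over all genes was 0.746, so that no difference was detected. Leaving out 1 array moved it from -0.35 to -0.17, without shMOF ERα(+) replicate 1 and replicate 3. The interval leaves room for a fall to 0.669 times and for a rise to 1.07 times. With array quality weights, which let limma count steadier arrays for more, the FOXA2 difference was -0.40 and passed (adjusted p = 0.0378). Those weights ranged from 0.359 on shMOF ERα(-) replicate 2 to 8.86 on shMOF ERα(-) replicate 3, with 3 arrays a group, and turned the count of genes called in this comparison from 0 to 1918.

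The interaction, in which the shMOF difference of ERα(-) is taken from that of ERα(+), was -0.64 ± 0.19 (SE) for EMX2 and -0.67 ± 0.22 for FOXA2 on the log2 scale, with 95% intervals from -1.05 to -0.22 and from -1.15 to -0.20. It is built on the comparisons that listed the genes and has no test here. Of all tested genes, 18% had an unadjusted p below 0.05 in the interaction and 0 passed limma's adjusted threshold (smallest adjusted p = 0.0697). Leaving out 1 array kept EMX2 between -0.75 and -0.53 and FOXA2 between -0.78 and -0.53. The comparisons share arrays, so the pattern of 2 positive and 2 negative differences is one arrangement of 4 group means and not 4 separate findings.

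**Figure D2:**
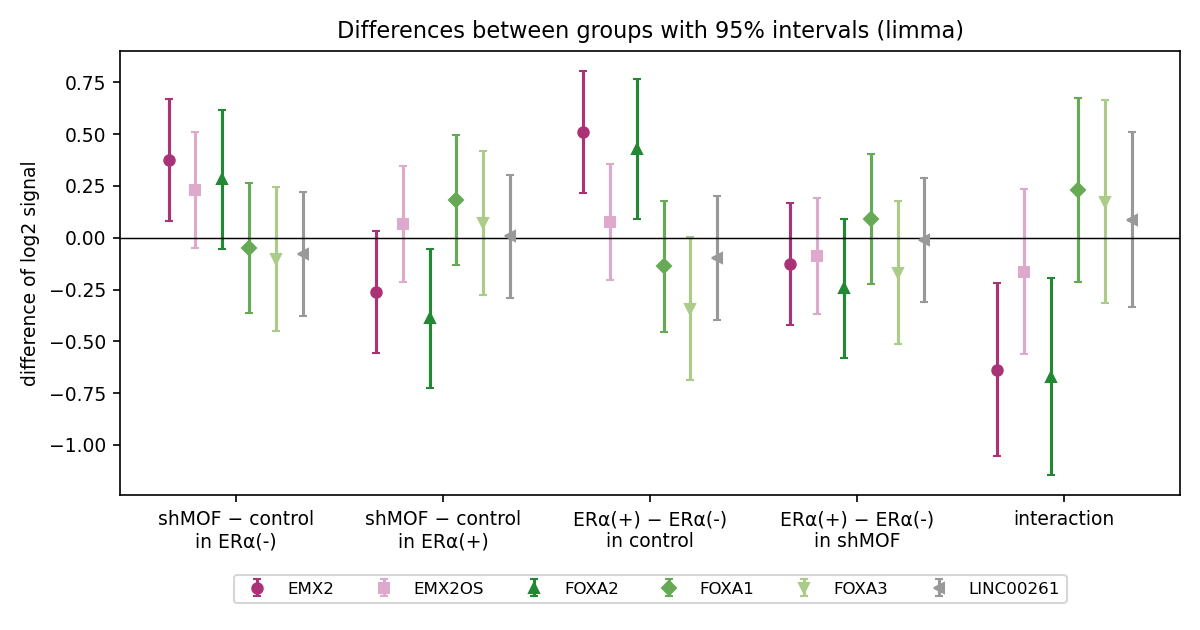
Differences of log2 signal with 95% intervals from limma (vertical axis) for EMX2, FOXA2 and their relatives and adjacent noncoding genes, in the 4 comparisons of groups and the interaction (horizontal axis). EMX2 and FOXA2 lie above 0 in the comparisons of shMOF in ERα(-) and of ERα in control arrays and below 0 in the other 3. The intervals of EMX2OS, FOXA1, FOXA3 and LINC00261 include 0 throughout, and so do those of EMX2 for shMOF in ERα(+) and for ERα in shMOF arrays, and those of FOXA2 for shMOF in ERα(-) and for ERα in shMOF arrays.

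The principal component moved with both genes. Over the 12 arrays, which share their groups and normalization, its score correlated with EMX2 at Pearson's r = 0.66 (Spearman's rho 0.64) and with FOXA2 at r = 0.69 (rho 0.69). After each group's mean was taken off, r was 0.57 and 0.42. When this component was added to the fit, a step decided on once the data had been seen, the difference between control ERα(+) and ERα(-) was 0.37 for EMX2 and 0.30 for FOXA2. The shMOF difference in ERα(+) shrank to -0.07 and -0.21, and the interaction to -0.38 and -0.43. Without the 2 arrays at its ends, chosen the same way, the shMOF difference in ERα(+) was -0.11 for EMX2 and -0.25 for FOXA2. The score differs between the groups in ERα(+). It also differs between the control groups, at 3.598 or more in ERα(+) and -3.585 or less in ERα(-). The covariate therefore also takes out part of both of these comparisons.

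The mean level of epithelial markers varied with the members too. Their mean log2 level over 8 genes ran from 8.11 to 8.38 in control ERα(+), from 8.0003 to 8.09 in control ERα(-), from 7.86 to 8.31 in shMOF ERα(-), and from 7.80 to 8.07 in shMOF ERα(+). Over the 12 arrays this level had r = 0.56 with EMX2 and r = 0.61 with FOXA2. Single markers differed: with EMX2 they ran from -0.71 (ESRP1) to 0.71 (KRT8), with EPCAM at 0.26. With FOXA2 they ran from -0.17 (ESRP1) to 0.61 (CLDN3). The mean level of 4 stromal markers stayed between 3.32 and 3.67 on all arrays. That of 6 immune and endothelial markers lay between 4.24 and 4.64, with r = 0.44 and r = 0.62. These markers also differed singly, from -0.34 (VWF) to 0.74 (CD68) with EMX2 and from -0.38 (LYZ) to 0.64 (CD68) with FOXA2. The part of these shifts in the results was not tested. In RNA from a whole culture, more cells that express a gene and more RNA per cell cannot be told apart.

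EMX2 and FOXA2 varied together over the arrays to a moderate degree, with r = 0.69 and rho 0.78 over 12 arrays. Much of this came from the groups: within groups, after each group's mean was taken off, r was 0.33. Both genes had been listed for the same difference between control groups, so part of the r over 12 arrays follows from the choice. Without control ERα(-) replicate 2 and control ERα(+) replicate 3, the arrays farthest from the median of FOXA2, r was 0.54. Neither gene was the other's nearest match. Among 7441 other genes at or above the median level, FOXA2 ranked 890 by its correlation with EMX2, and EMX2 ranked 276 by its correlation with FOXA2.

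**Figure D3:**
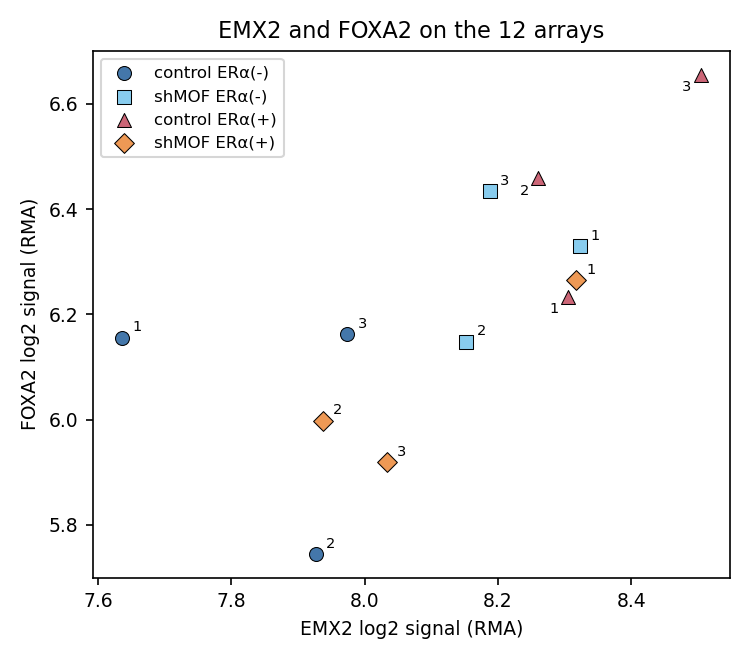
Log2 RMA signal of FOXA2 (vertical axis) against EMX2 (horizontal axis) on the 12 arrays, with a colour and marker for each labelled group and the replicate number beside each point. Control ERα(+) replicate 3 is at the upper right end (8.50 and 6.66), and r over all 12 arrays is 0.69. Both genes were listed for the difference between control groups, so part of this r follows from the choice. On the horizontal axis every control ERα(-) point lies to the left of every shMOF ERα(-) and control ERα(+) point.

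The genes most like EMX2 over the 12 arrays were HDAC6, a cytoplasmic deacetylase of tubulin (r = 0.96), EPPK1, a cytoskeletal linker of epithelia (0.95), MIR4653 (0.95), ZBTB7A, a zinc finger repressor (0.94), and IQGAP3, a scaffold protein of proliferating cells (0.94). The most opposed were ACBD5, a peroxisomal membrane protein (-0.94), EXO1, an exonuclease of DNA repair (-0.93), AVL9 (-0.92), IPMK, an inositol phosphate kinase (-0.92), and OXSR1, a stress-responsive kinase (-0.92). Such likeness was common: 271 genes (3.64%) reached r of 0.8 or more with EMX2, and 17.1% of genes did so with the first principal component.

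FOXA2 had fewer close matches, with 26 genes (0.349%) at r of 0.8 or more. The most like it were APLP2, a relative of the amyloid precursor protein (r = 0.91), TGIF1, a homeodomain repressor of TGF-beta signalling (0.89), CYB5R2 (0.89), RSPH3, a radial spoke protein of cilia (0.89), and DHRS3, which reduces retinaldehyde (0.88). CPM, a membrane carboxypeptidase (-0.93), MIR338 (-0.92), ZNF778 (-0.91), GDAP1 (-0.90) and NEK4 (-0.90) were the most opposed. DHRS3 and NEK4 correlated still more closely with the principal component, at 0.92 and -0.91. These correlations are descriptions over 12 arrays of 4 groups.

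The relatives of FOXA2 had group means in another order, and whether their differences depart from those of FOXA2 was not tested. FOXA1, which opens chromatin for the oestrogen receptor in breast cells, was lowest in control ERα(+), at 5.87 ± 0.18 (SD, n = 3), and highest in shMOF ERα(+), at 6.05 ± 0.12, with 5.96 ± 0.25 in shMOF and 6.01 ± 0.12 in control arrays labelled ERα(-). All of its groups overlapped, and its correlation with FOXA2 was below 0 (r = -0.55 over 12 arrays, -0.42 within groups). FOXA3, another member best known from liver, differed between control ERα(+) and ERα(-) by -0.34 ± 0.16 (SE; 95% interval -0.69 to 0.004; adjusted p = 0.397, limma). EMX1, the other gene of the EMX family, had a mean of 4.71, and its differences in the 4 comparisons of groups lay between -0.10 and 0.006.

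The noncoding genes beside the members were dim. EMX2OS had a mean log2 signal of 4.76 and differed by 0.08 ± 0.13 (SE) between control ERα(+) and ERα(-) and by 0.23 ± 0.13 between shMOF and control in ERα(-), with adjusted p of 0.823 and 0.953 in limma. Both have the sign of the EMX2 differences, as did its interaction (-0.16 ± 0.18) and its difference between shMOF ERα(+) and ERα(-) (-0.09 ± 0.13), while between shMOF and control in ERα(+) it was at 0.07 ± 0.13, opposite in sign to EMX2. All 5 of its 95% intervals included 0, and whether it differed from EMX2 was not tested. Its r with EMX2 was 0.15 over 12 arrays and -0.24 within groups. LINC00261 read 2.58 on average, at the 5.6th percentile, near the low end of the arrays' scale, and its group means lay between 2.55 and 2.65. Its r with FOXA2 was -0.33.

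Of the 3 nearest measured genes on either side of each member, 0 of 12 had an unadjusted p below 0.05 between control ERα(+) and ERα(-), where 12.7% of all tested genes did, and 0 of 12 between shMOF and control in ERα(-), where 4.78% did. In the former comparison the 6 genes around EMX2 lay between -0.26 and 0.10 and the 6 around FOXA2 between -0.25 and 0.20. The members were listed for that difference and the neighbours were taken by position. That the members stand above them follows in part from the choice. PDZD8, an endoplasmic reticulum protein gene 167.31 kb from EMX2, differed by -0.23 ± 0.16 (SE), and PAX1, a patterning gene 862.52 kb from FOXA2, by -0.25 ± 0.20. In ERα(+), PDZD8 was at 0.41 ± 0.16 and CASC2 at 0.32 ± 0.14 between shMOF and control (unadjusted p = 0.0269 and 0.0457, limma), opposite in sign to EMX2, in a comparison where 18.7% of genes had an unadjusted p below 0.05.

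**Figure D4:**
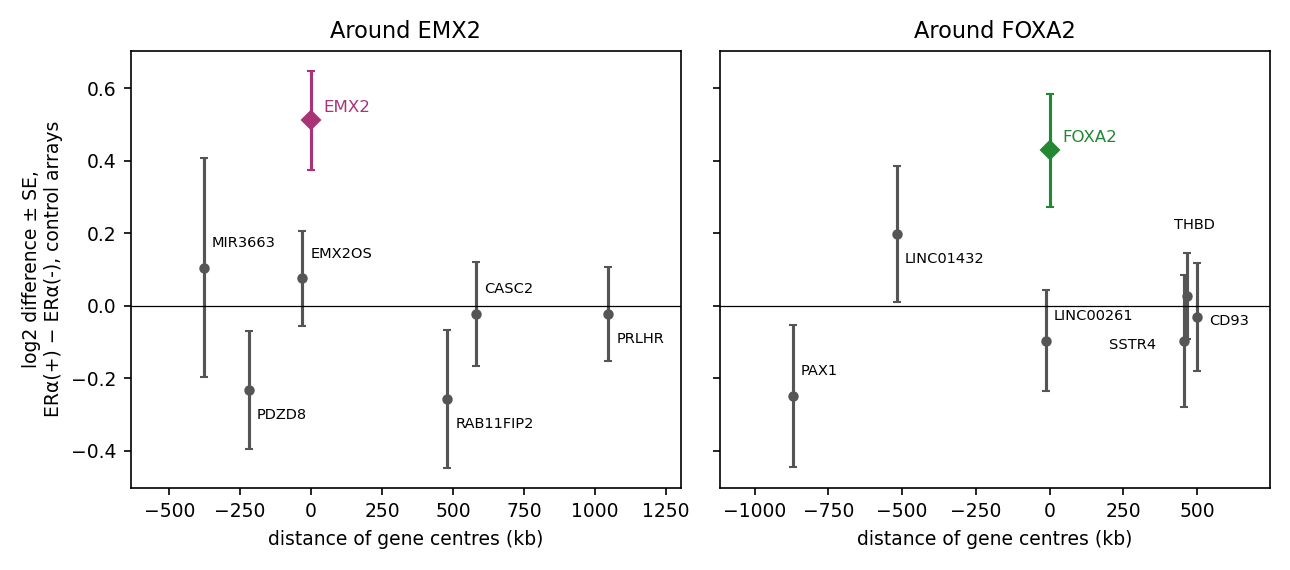
Log2 difference ± SE between control ERα(+) and control ERα(-) arrays (vertical axis) for each member and the 3 nearest measured genes on either side, against the distance between gene centres in kb (horizontal axis). EMX2 (0.51) and FOXA2 (0.43) stand above all 12 neighbours, which lie between -0.26 and 0.20. The members were listed for this difference and the neighbours were taken by position, so this gap follows in part from the choice.

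Factors that pattern the Müllerian duct and the urogenital tract, the setting in which EMX2 is best known, were measured for 13 of 23 listed genes. Between control ERα(+) and ERα(-), 3 of the 13 had an unadjusted p below 0.05, all higher, beside 6.34% of all genes that were higher at that level, while all 13 missed the adjusted threshold. Those 3 were LHX1, a LIM homeodomain factor needed for the Müllerian duct, SALL1, a zinc finger factor of the kidney, and EYA1, a transcriptional co-activator of the developing kidney. The list's median difference was 0.08, against -0.002 for all genes. In this list and the 3 lists that follow, 0 genes passed the adjusted threshold in any of the 5 comparisons. PAX8, the marker of Müllerian epithelium with the highest signal in the list (10.7), correlated with EMX2 at r = 0.64.

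LHX1 read 5.11, 5.34 and 5.71 in control ERα(-) and 5.81, 6.35 and 6.16 in control ERα(+), for replicates 1 to 3, with no overlap. Its difference was 0.72 ± 0.17 (SE; limma adjusted p = 0.333). SALL1 read 8.30, 9.29 and 9.04 against 9.54, 9.83 and 9.50, a difference of 0.74 ± 0.21, again without overlap. EYA1 read 6.42, 6.37 and 6.60 against 7.13, 7.29 and 7.0006, a difference of 0.68 ± 0.18, and these groups did not overlap either. The 3 differences stood beside 0.51 ± 0.14 for EMX2, and whether they differ from it was not tested.

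The same 3 genes lay above 0 between shMOF and control in ERα(-), with SALL1 at 0.55 ± 0.21 (SE), EYA1 at 0.38 ± 0.18 and LHX1 at 0.32 ± 0.17. They were singled out above by the difference between the control groups. The shMOF comparisons in ERα(-) and ERα(+) share those control arrays, so the signs of these genes there are no independent evidence. In ERα(+) LHX1 was at -0.40 ± 0.17 and SALL1 at -0.37 ± 0.21, and neither gene's groups overlapped, where 14.1% of all genes were lower without overlap. EYA1 was at -0.24 ± 0.18 there, with overlapping groups (limma adjusted p = 0.455). Limma's adjusted p was 0.953 for all 3 in ERα(-), and 0.252 and 0.330 for LHX1 and SALL1 in ERα(+). Over the 12 arrays their r with EMX2 was 0.77 for LHX1, 0.80 for SALL1 and 0.70 for EYA1. Over all 13 measured genes of the list r with EMX2 ran from -0.39 (OSR1) to 0.80, with WT1 at 0.03. Among genes at or above the median level the 95th percentile of r with EMX2 was 0.775. SIX2, a factor of kidney progenitors, was the 1 listed gene at an unadjusted p below 0.05 between shMOF ERα(+) and ERα(-), at -0.41 ± 0.16 (adjusted p = 0.746), beside 5.33% of all genes. WT1, a zinc finger factor of the gonad and kidney, was at 0.17 ± 0.18 in that comparison.

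Of genes linked with FOXA2 in uterine glands, 18 of 23 were measured, and their differences had both signs. Between control ERα(+) and ERα(-), 5 were higher and 2 lower at an unadjusted p below 0.05, beside 6.34% and 6.38% of all genes. The list's median was 0.02. STAT3, which relays LIF signals, read 9.11, 9.28 and 9.04 in control ERα(-) against 9.46, 9.40 and 9.63 in control ERα(+), for replicates 1 to 3. That is a difference of 0.36 ± 0.12 (SE) with no overlap. SOX9, a factor of gland progenitors, was at 0.45 ± 0.16, and LIFR, the LIF receptor, at -0.49 ± 0.17, each with a limma adjusted p of 0.333. LIFR did not overlap either, where 8.92% of all genes were lower without overlap.

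STAT3 had the opposite sign in shMOF arrays, at -0.23 ± 0.12 (SE) between ERα(+) and ERα(-), again without overlap, where 5.7% of all genes were lower in that way. Its interaction was -0.59 ± 0.17, with a limma adjusted p of 0.219, so that the difference between the conditions did not pass. LIFR ran opposite to FOXA2 over the 12 arrays (r = -0.76). It was at 0.52 ± 0.17 between shMOF and control in ERα(+), with arrays between 4.60 and 4.73 against 3.92 to 4.36, where 12.2% of all genes were higher without overlap. LGR5, a Wnt pathway receptor of gland stem cells, was at 1.49 ± 0.51 in that comparison (limma adjusted p = 0.223) and at 1.0011 ± 0.51 between shMOF ERα(+) and ERα(-). Its shMOF ERα(-) arrays were uneven, at 5.26, 7.84 and 5.78 for replicates 1 to 3, and the shMOF groups overlapped. Between control ERα(+) and ERα(-) LGR5 was at -1.31 ± 0.51, lower without overlap, as 8.92% of all genes were. MSX2, a homeobox gene of the uterine epithelium, was at -0.42 ± 0.18 between shMOF ERα(+) and ERα(-).

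In ERα(-), LEF1, a nuclear partner of Wnt signalling, was at 0.70 ± 0.26 (SE) between shMOF and control, and PROM1, a surface marker of progenitors, at -0.42 ± 0.17 (both limma adjusted p = 0.953). MSX1, a homeobox gene of the uterine epithelium, correlated with both members, at r = 0.84 with EMX2 and 0.77 with FOXA2. KLF5, a factor of the uterine epithelium at implantation, ran opposite to EMX2 (r = -0.75). SOX17, which acts with FOXA2 in glands, had r = 0.76 with EMX2 and 0.46 with FOXA2. LIF itself had r = 0.23 with FOXA2. The highest signals of the list were those of STAT3, SOX9 and KLF5, at means of 9.29, 9.19 and 8.63.

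**Figure D5:**
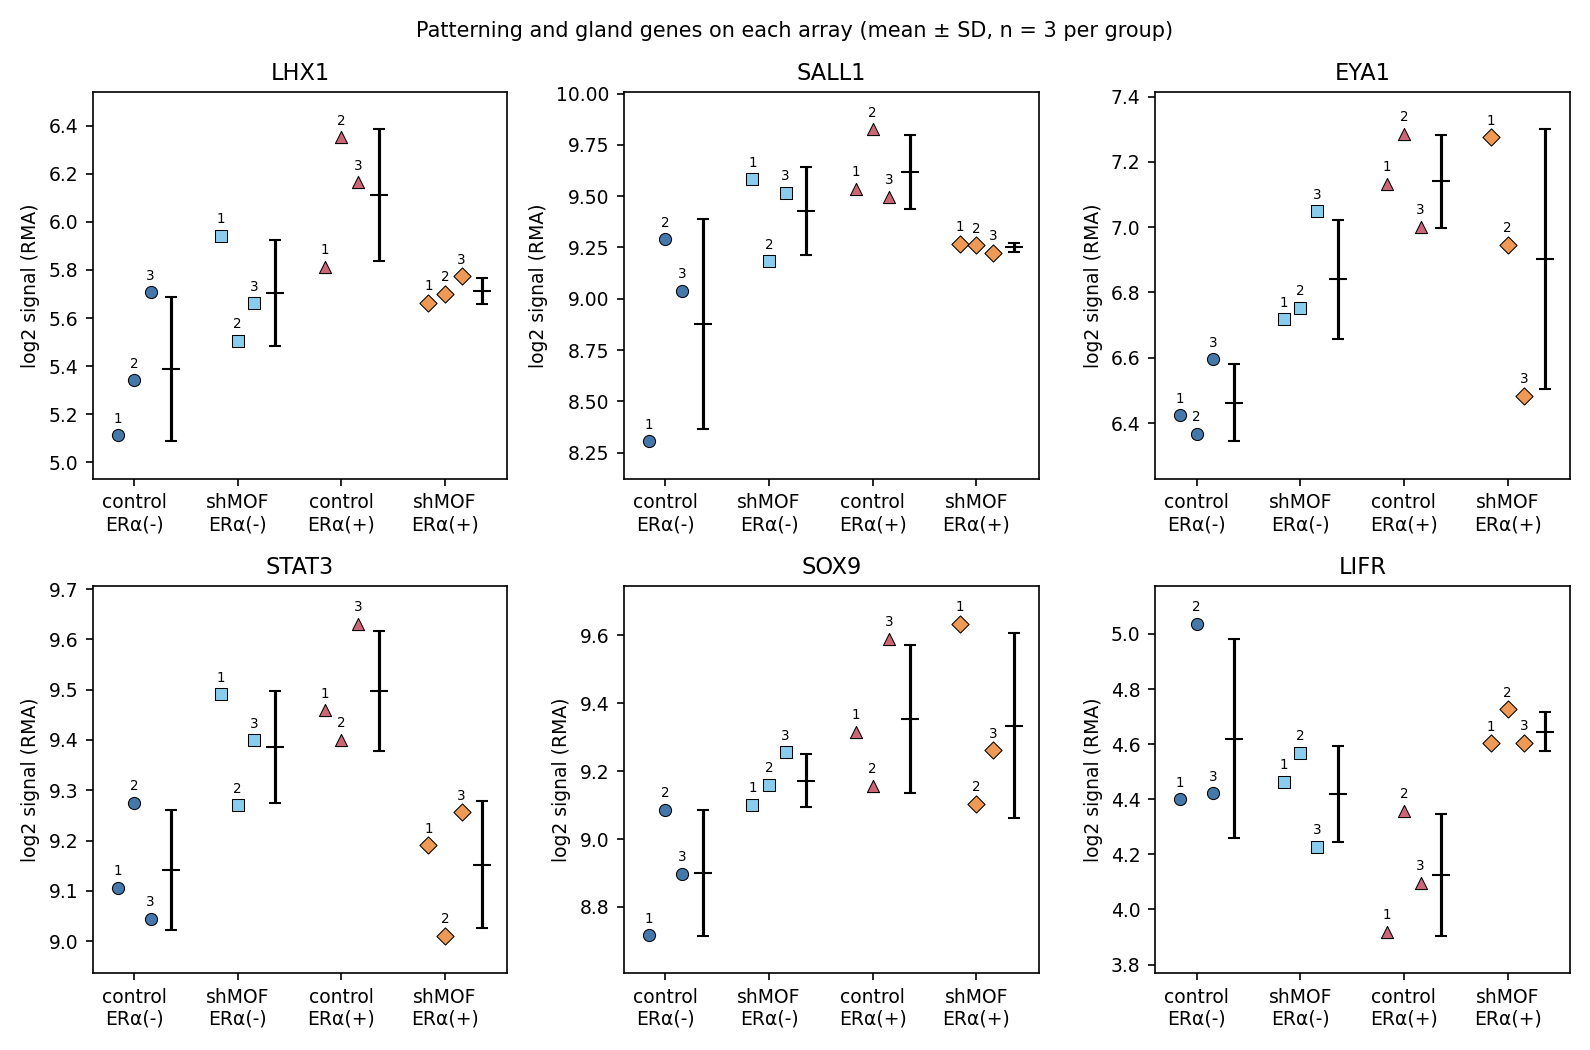
Log2 RMA signal on each array in the 4 labelled groups for 3 urogenital patterning genes (LHX1, SALL1, EYA1) and 3 gland genes (STAT3, SOX9, LIFR), with replicate numbers and mean ± SD over 3 arrays. All but LIFR are higher without overlap in control ERα(+) than in control ERα(-), and LIFR is lower without overlap, where 10.3% and 8.92% of all genes are higher and lower in that way. The genes shown are those of their lists with the smallest p in this comparison.

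Secreted and enzymatic products of glands were measured for 13 of 18 listed genes. Between control ERα(+) and ERα(-), 1 was higher and 2 were lower at an unadjusted p below 0.05, beside 6.34% and 6.38% of all genes. GPX3, a secreted glutathione peroxidase, was at 0.48 ± 0.15 (SE), LTF, the iron-binding protein lactotransferrin, at -0.82 ± 0.22 and MAOA, a monoamine oxidase, at -0.36 ± 0.12 (limma adjusted p = 0.333 for each). LTF was dim, at a mean log2 signal of 3.64 and the 15.8th percentile of tested genes. Between shMOF and control in ERα(+), MAOA was at 0.47 ± 0.12, with arrays of 7.44, 7.48 and 7.41 against 7.05, 6.91 and 6.98. SLPI, a secreted protease inhibitor, was at -0.69 ± 0.25 (limma adjusted p = 0.223 for both). The list's median was 0.07 there, and the MAOA difference was opposite in sign to that of FOXA2. SLPI had the highest mean signal of the list (9.69), followed by the matrix protein gene SPP1 (8.88) and WFDC2 (8.82), an antiproteinase of epithelia.

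MAOA had opposite signs in control and shMOF arrays. Between ERα(+) and ERα(-) it was lower without overlap in control arrays, and in shMOF arrays it was higher without overlap at 0.25 ± 0.12 (SE), where 3.8% of all genes were higher in that way. Its interaction was 0.61 ± 0.17 and did not pass (limma adjusted p = 0.219). SLPI was at -0.48 ± 0.25 between shMOF ERα(+) and ERα(-). In ERα(-) the listed genes with the smallest p were MAOA at -0.14 ± 0.12 and DPP4, a surface peptidase of the receptive endometrium, at -0.19 ± 0.17, between shMOF and control. PAEP, the secretory-phase protein glycodelin, had r = 0.73 with FOXA2 at a low mean signal of 5.05. That was the highest r with FOXA2 in this list, and the lowest was -0.51 (MAOA).

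Known targets of FOXA2 in liver and other endoderm were dim in these cells. Of 10 measured out of 15 listed, the highest mean signals were 5.36 for PDX1, 5.34 for APOA2 and 5.22 for TTR, all below the median level of tested genes (5.66). Between control ERα(+) and ERα(-) 0 of 10 had an unadjusted p below 0.05, where 12.7% of all genes did, so that a count of 0 in a list this short is near the background. The list's median was -0.06. TTR, the thyroid hormone carrier, was at -0.22 ± 0.12 (SE) and PDX1, a pancreatic homeobox factor, at -0.23 ± 0.13. Over the 12 arrays r with FOXA2 ran from -0.61 (PDX1) to 0.84 (TFF1) in this list. TFF1, a mucosal peptide that is also a classical oestrogen target, was thus nearest to FOXA2. It was at -0.39 ± 0.17 between shMOF and control in ERα(+) (limma adjusted p = 0.249), with overlapping arrays of 4.83, 4.49 and 4.48 against 4.66, 4.997 and 5.31. APOA1, a lipoprotein gene, was at 0.16 ± 0.14 there, and between shMOF ERα(+) and ERα(-) it was at 0.19 ± 0.14 and TFF1 at -0.22 ± 0.17. Between shMOF and control in ERα(-), PDX1 was at -0.28 ± 0.13 and TTR at -0.25 ± 0.12, both lower without overlap (adjusted p = 0.953), where 4.66% of all genes were lower in that way.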

How the data were processed

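RNA of 12 arrays in 4 groups of 3 was analysed. Per the submitters' processing notes, the authors used RMA in Affymetrix Expression Console 1.4.1, and the deposited table holds log2 signals. RMA equalises the distributions between arrays and can compress differences of dim transcripts. Array medians lay between 4.53 and 4.59, and 3 arrays a group limit the precision. The platform annotation gave 1 symbol to 16098 of 53617 probe sets, several to 0 and none to 37519, and symbols were updated by gene ID. The probe set with the highest mean stood for each of 14884 genes. Group means were fitted with limma 3.58.1 (lmFit and eBayes, two-sided) in R 4.3.3 over all 12 arrays, and p-values were adjusted by Benjamini-Hochberg over all genes at 0.05. An exact test of 3 against 3 arrays cannot go below 0.1. The fit was tested on simulated data.

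The members and the 7 gene lists were chosen with earlier results of these data known. Named are the members, their families and adjacent noncoding genes, the 3 nearest measured genes on either side, the 5 genes most like and most opposed, and, in 4 lists, members with the highest signal or the 2 smallest p in a comparison. MSX1, SOX17, LIF, PAEP and the cell type markers were picked for the text after their values were seen. For a gene named for a small p in a comparison, another comparison that shares its arrays is no independent evidence.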

Additional observations from a re-analysis of the deposited data

How the results depend on the processing

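The difference of EMX2 and of FOXA2 kept its direction in all 238 refits over the 5 comparisons, with 24 alternatives tried: other probe set summaries, a filter on dim genes, other scalings, a variance trend, array weights, subsets, blocks and single arrays left out. The choice of members fixes part of these directions. Many of the refits could not move the difference. With 1 probe set for each member, other probe set summaries returned the same value. So did the filter, the variance trend, the replicate block and fits of only the groups compared. Each comparison of groups uses 6 arrays, and leaving out any other array left its difference as it was. The EMX2 difference between shMOF ERα(+) and ERα(-) was only -0.007 when the fit also held the first principal component. In 235 of the refits the side of the adjusted threshold was the same, and the 3 others came with array quality weights: FOXA2 between shMOF ERα(+) and ERα(-) (-0.40, adjusted p = 0.0378), and the interaction of EMX2 (-0.53, 0.02) and FOXA2 (-0.70, 0.0177). These weights took the genes called from 0 to 645 and 1629 for shMOF in ERα(-) and ERα(+), to 217 and 1918 for ERα in control and shMOF arrays, and to 3258 for the interaction. The cause was not tested. With only the groups compared 9 genes were called for ERα in control arrays, and with arrays of 1 code letter treated as a block 5 for the interaction. The letter is that of the sample code, and what it marks is not stated. Each letter occurred in ERα(-) or in ERα(+) arrays only, and in ERα(+) the control and shMOF arrays shared no letter. A difference between letters thus cannot be told apart from the ERα comparisons or from the shMOF comparison in ERα(+). In ERα(-) the control and shMOF arrays shared only part of their letters. The correlation within letters was -0.15. Without both end arrays of the first principal component 1 was called for shMOF in ERα(+) and 1 for the interaction. Leaving out 1 array gave 0 to 5 genes for shMOF in ERα(-), 0 to 30 in ERα(+), 0 to 4 for ERα in control arrays, 0 to 11 in shMOF arrays and 0 to 570 for the interaction, the highest each time without shMOF ERα(-) replicate 2. With the replicate number as a block 2 genes were called for the interaction. Same-numbered arrays of different groups had deviations correlated between -0.18 and 0.45 over 18 pairs, so the numbers were not taken as a pairing. RMA values of dim probe sets such as LINC00261 limit what can be seen there.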
